A study of Mus musculus with 12 samples.

Results

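DNA replication and nucleotide synthesis genes were followed across 3 groups of sorted mouse CD8 T cells. The genes were a named list of 33: the replicative helicase and its loading factors, the clamp, primase and polymerases at the fork, chromatin and control factors, and enzymes that supply nucleotides. A gene was measured when a probe set named only that gene, and the probe set with the highest mean over the 12 arrays was taken. This held for 32 of the 33 genes, out of 18193 genes measured on the arrays; Chaf1a was not analysed here. This choice of probe set uses no difference between groups, but the list of genes was chosen with earlier results of these data known.

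The study asked which CD8+ T cells account for the proliferative burst that follows PD-1 therapy. All cells came from mice given as strain C57bl/c, aged 6 to 8 weeks, and no sample was labelled as treated. The naive group held CD8 T lymphocytes from the spleens of naive mice (n = 5). Both tumour groups held CD8 tumour-infiltrating lymphocytes (TIL) from mice bearing B16F10-GP, a skin melanoma line implanted in the flank, and were sorted between day 17 and day 19. PD-1+ Tim-3- TIL (n = 3) were also 2B4- and are called stem-like in the labels, while PD-1+ Tim-3+ TIL (n = 4) were also 2B4+ and are called exhausted. Naive spleen and tumour cells therefore differ in tissue and in isolation as well as in state, and these cannot be told apart. Nothing states that replicates came from separate animals or whether animals were pooled, so p-values measure only the spread between samples, which may be technical.

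Cells entering S phase load the MCM complex, a ring-shaped helicase built of Mcm2 to Mcm7, onto origins with the help of Cdc6 and Cdt1, and then activate it with Cdc45 and the GINS complex. The sliding clamp PCNA, loaded by the replication factor C complex, holds polymerases on the DNA, and primase with polymerase alpha starts each new strand. Ribonucleotide reductase makes the deoxynucleotides that this consumes, and many of these genes are classic targets of E2F transcription factors. Naive T cells are largely quiescent and switch the programme on when they are activated.

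Values are log2 intensities, group differences are log2 changes ± SE, and the threshold is a Benjamini-Hochberg adjusted p below 0.05 over all 18193 genes in limma. A level below 5.71, percentile 40 of all genes, may lie at background, so a fold taken from such a level can understate the change. Array medians lay between 58.8 and 63.0 intensity units, and arrays of a group correlated at 0.988 to 0.996. The precision is limited by how many arrays there are. The RNA of the PD-1 and Tim-3 sort markers ran with the labels. Pdcd1, which encodes PD-1, had means of 5.14 in naive cells, 11.37 in Tim-3- TIL and 11.77 in Tim-3+ TIL. Havcr2, which encodes Tim-3, had means of 4.63, 7.08 and 11.66. Havcr2 RNA thus also rose from naive cells to the Tim-3- group (log2 change 2.45, past the threshold). The RNA of 2B4 was not read here. Cd8a stood at 12.82, 12.63 and 12.85 and passed the threshold in none of the 3 comparisons between groups. Of 6 T cell identity genes, Cd8a among them, 1 was lower in Tim-3- TIL than in naive cells (18.3% of all genes). In Tim-3+ TIL 2 were lower than in naive cells (21.4%) and 1 lower than in Tim-3- TIL (5.77%), and 0 were higher in any comparison. The arrays also fell into 2 sets that no label names, A (naive replicates 1 and 2, Tim-3- replicate 1, Tim-3+ replicates 1 and 2) and B (the other 7 arrays), and both sets hold all 3 groups.

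Replication genes were higher in both TIL groups than in naive cells, and higher again in Tim-3+ than in Tim-3- TIL. Against naive cells, 28 of the 32 genes were higher in Tim-3- TIL and 0 were lower, where 16.1% of all genes were higher and 18.3% lower. Their median log2 change was 1.03, against -0.06 over all genes, and 17 of the 32 rose at least 2-fold, against 6.99% of all genes. In Tim-3+ TIL 29 of the 32 were higher than in naive cells (20.1% of all genes) and 0 were lower (21.4%). The median was 1.77 against -0.07 over all genes, and 24 of the 32 rose at least 2-fold, against 8.25% of all genes. Between the TIL groups 22 of the 32 were higher in Tim-3+ cells and 0 were lower, where 7.77% of all genes were higher and 5.77% lower. The median of that difference was 0.77 against 0.01 over all genes, and 4 of the 32 reached 2-fold, against 2.05% of all genes. The Tim-3+ arrays all lay above the Tim-3- arrays for 22 of the 32 genes, against 13.1% of all genes. Most of these genes had further probe sets, 45 in all, of which 36 had a mean above percentile 40; of those 36, 35 had a higher mean in Tim-3+ TIL than in the Tim-3- group and 33 a higher mean in Tim-3- TIL than in naive cells. In bulk RNA a larger share of cycling cells and more RNA of these genes per cycling cell cannot be told apart.

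The step between the TIL groups depended on single arrays more than the step from naive cells did. Without Tim-3- replicate 2 the count of genes higher in Tim-3+ TIL fell from 22 to 12, and without any other array of the TIL groups it lay between 16 and 21. Over all 18193 genes the count higher also fell, from 1413 to 907, without Tim-3- replicate 2. Within set B 14 genes passed, where 1166 of all genes were higher. The median differences were 0.60 within set A, which holds 1 Tim-3- array, and 0.76 within set B. All 22 genes had a positive difference in both sets, and all 22 passed when the sets were entered as a block. That block also raised the count of genes higher over all 18193, from 1413 to 1964.

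**Figure D1:**
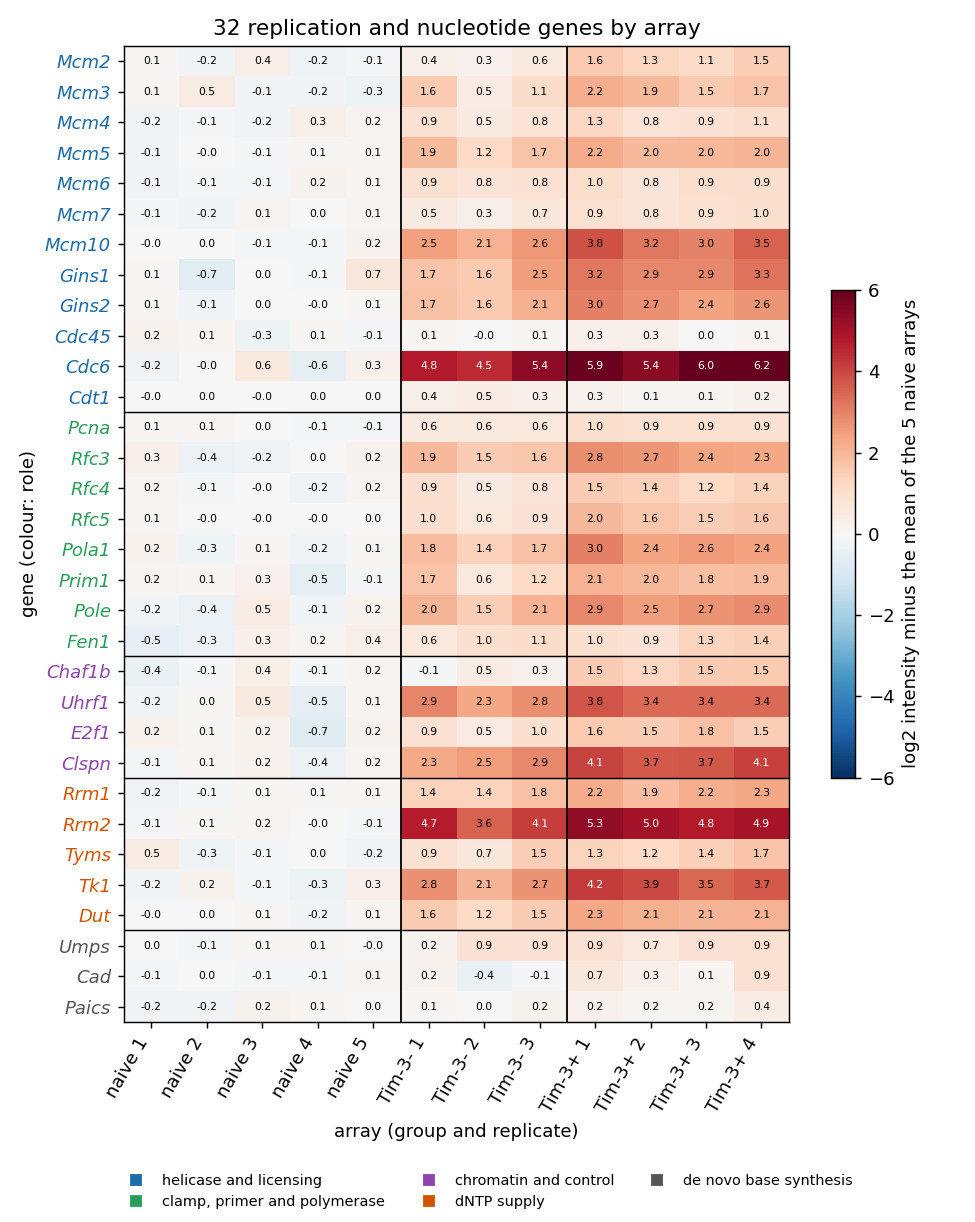
Heat map of the 32 replication and nucleotide synthesis genes (rows, grouped by role) on the 12 arrays (columns, by group and replicate), coloured by log2 intensity minus the gene's mean over the 5 naive arrays. Colour deepens from naive to Tim-3- to Tim-3+ arrays for most genes, Cdc6 and Rrm2 change most, and Cdc45, Cad and Paics stay pale.

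To show the sequence around these genes, the promoters, 300 bases from 250 before the start site, were taken from RefSeq on GRCm38.p6, and 28 of the 32 genes matched. They were searched on both strands for 4 E2F-like forms, TTTCCCGC, TTTCGCGC, TTTGCCGC and TTTGGCGC, which can overlap each other, and for CCAAT. An E2F-like form stood in 10 of the 28 promoters (35.7%), against 3.81% of 14452 genes on the arrays with a promoter and 24.2% of the 66 other pathway genes described further on. CCAAT stood in 16 of the 28 (57.1%), against 42.0% of all genes. The E2F-like matches were in 6 of 9 helicase and licensing genes, 2 of 7 fork genes, 2 of 4 chromatin and control genes, 0 of 5 genes of deoxynucleotide supply and 0 of 3 genes of de novo base synthesis. Stretches of 6 genes with a match are shown because these genes span the helicase, licensing, fork and checkpoint roles described next. They run 5′ to 3′ on the gene's own strand, and the capitals mark the E2F-like form.
Cdc6: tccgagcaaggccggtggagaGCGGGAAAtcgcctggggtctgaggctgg
Mcm5: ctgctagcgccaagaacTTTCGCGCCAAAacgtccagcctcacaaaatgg
Mcm6: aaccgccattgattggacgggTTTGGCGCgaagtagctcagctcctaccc
Pola1: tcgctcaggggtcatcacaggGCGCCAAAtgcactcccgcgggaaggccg
Rfc3: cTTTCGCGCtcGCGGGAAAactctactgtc
Clspn: accgcgtctggGCGCGAAAgctcgaacttc
The Cdc6 stretch lies at chr11:98907992-98908041 on the plus strand, with its match starting 138 bases before the start site. That of Mcm5 lies at chr8:75109339-75109388 on the plus strand and holds 2 overlapping matches. That of Mcm6 lies at chr1:128359724-128359773 on the minus strand, with the match 47 bases before the start site. Pola1 follows at chrX:93632265-93632314 on the minus strand, Rfc3 at chr5:151651190-151651219 on the minus strand with 2 matches, and Clspn at chr4:126556990-126557019 on the plus strand. A match is a description of the letters, not a binding site. The 10 genes with a match had a median log2 change of 1.63 from naive to Tim-3- cells and 0.81 between the TIL groups, and the 18 without had medians of 0.82 and 0.69; the sets were not tested against each other.

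Among the 12 helicase and licensing genes, 11 were higher in Tim-3- TIL than in naive cells, and 7 rose further in Tim-3+ TIL. By the brightest probe sets Mcm2, Mcm3 and Mcm7 passed between the TIL groups and Mcm4, Mcm5 and Mcm6 did not; the subunits were not tested against each other. The levels of Mcm2 were 9.07, 8.82, 9.39, 8.78 and 8.93 in naive cells, 9.37, 9.26 and 9.59 in Tim-3- TIL, and 10.56, 10.27, 10.14 and 10.46 in Tim-3+ TIL. The Tim-3+ arrays stood clear of all others, while naive and Tim-3- arrays overlapped. The step between TIL groups was 0.95 ± 0.15 (adjusted p = 0.000812). The step from naive to Tim-3- TIL was 0.40 ± 0.15 (adjusted p = 0.0475), and it missed the threshold without any single array other than naive replicate 3 (log2 change 0.31 to 0.48, adjusted p 0.051 to 0.204). The most variable probe set of Mcm2 gave 0.69 for that step (adjusted p = 0.00253).

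Mcm6 overlapped between the TIL groups instead. It stood at 11.05, 11.10, 11.09, 11.43 and 11.31 in naive cells, at 12.09, 11.98 and 12.04 in Tim-3- TIL, and at 12.23, 11.97, 12.14 and 12.14 in Tim-3+ TIL. Both TIL groups lay above every naive array. The rise from naive to Tim-3- cells was 0.85 ± 0.11 (adjusted p = 2.97e-05), and the difference between TIL groups was 0.08 ± 0.11 (adjusted p = 0.765). Mcm5 rose by 1.61 ± 0.14 from naive to Tim-3- cells and differed by 0.45 ± 0.15 between the TIL groups (adjusted p = 0.0644), although its 4 Tim-3+ arrays, from 11.30 to 11.57, all lay above its 3 Tim-3- arrays, from 10.54 to 11.25. Mcm4 rose by 0.75 ± 0.15 and then differed by 0.25 ± 0.16 (adjusted p = 0.398). For Mcm4, Mcm5 and Mcm6 the value depended on the probe set: the brightest probe sets whose ID carries no letter for shared matches gave steps between TIL groups of 0.64, 0.88 and 0.40, and all 3 passed (adjusted p = 0.00227, 0.00835 and 0.0295).

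Mcm3 and Mcm7 passed in both steps, with differences between the TIL groups of 0.80 ± 0.24 (adjusted p = 0.0394) and 0.38 ± 0.12 (adjusted p = 0.0444). For Mcm3 the groups touched, since Tim-3- replicate 1 at 10.86 lay above Tim-3+ replicate 3 at 10.85. Both calls hung on single arrays. That of Mcm3 needed Tim-3- replicates 2 and 3 and Tim-3+ replicates 1, 2 and 4, each of which, left out, took the adjusted p to between 0.0559 and 0.207. That of Mcm7 was lost without any array of the TIL groups except Tim-3- replicate 3 (adjusted p 0.0501 to 0.210).

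Among the licensing factors, Cdc6, the ATPase that brings the helicase to origins, showed the largest change of all 32 genes. It stood at 3.30, 3.50, 4.08, 2.92 and 3.77 in naive cells, at 8.29, 7.97 and 8.90 in Tim-3- TIL, and at 9.39, 8.94, 9.47 and 9.67 in Tim-3+ TIL. No group overlapped another. Its naive levels all lay below 5.71, so the rise of 4.87 ± 0.26 to Tim-3- cells (adjusted p = 4.59e-09, 29.3-fold as measured) can understate the change. The further difference of 0.98 ± 0.27 (adjusted p = 0.0256) did not survive leaving out Tim-3- replicate 1 or 2 or any of Tim-3+ replicates 1, 3 and 4, with adjusted p from 0.0555 to 0.135. Within sets A and B that difference was 0.87 and 1.14.

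Cdt1, the partner of Cdc6 in loading, went its own way. Its naive levels were 10.47, 10.51, 10.46, 10.53 and 10.52, its Tim-3- levels 10.87, 10.95 and 10.81, and its Tim-3+ levels 10.76, 10.64, 10.63 and 10.75. Tim-3- arrays were thus the highest, and Cdt1 was the only one of the 32 genes whose Tim-3+ arrays all lay below its Tim-3- arrays, as did those of 9.57% of all genes. It rose by 0.38 ± 0.08 from naive to Tim-3- cells (adjusted p = 0.00273), and the difference of -0.18 ± 0.09 between TIL groups did not pass (adjusted p = 0.216). With the mean of its probe sets the rise from naive cells was 0.22 and did not pass (adjusted p = 0.0748). That mean takes in a probe set at 2.36, below 5.71, while the probe set at 9.13 gave a rise of 0.38. The protein of Cdt1 is controlled mainly by degradation within the cycle, which arrays do not measure.

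Of the 4 factors that switch the loaded helicase on, Mcm10, Gins1 and Gins2 rose in both steps and Cdc45 passed in neither. Mcm10, a scaffold at the new fork, stood between 5.31 and 5.62 in naive cells, at 7.88, 7.51 and 8.02 in Tim-3- TIL and at 9.25, 8.59, 8.38 and 8.94 in Tim-3+ TIL. Its differences were 2.38 ± 0.18 and 0.99 ± 0.18 (adjusted p = 1.41e-07 and 0.0024), the first against naive levels below 5.71. Gins1 and Gins2, subunits of the GINS complex, rose by 1.93 ± 0.26 and 1.82 ± 0.15 from naive to Tim-3- cells, and by 1.13 ± 0.27 and 0.89 ± 0.16 between TIL groups. With Tim-3- replicate 2 left out, Gins1 no longer passed between TIL groups, at 0.95 with an adjusted p of 0.0725. Cdc45, the remaining part of the active helicase, lay between 6.73 and 7.34 on all 12 arrays and passed in no comparison by its brightest probe set. Its other probe set had means of 5.66 in naive cells, 6.85 in Tim-3- TIL and 7.71 in Tim-3+ TIL, and with it both steps passed (adjusted p = 2.97e-05 and 0.00261), so the 2 probe sets disagree and the level of Cdc45 is uncertain.

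**Figure D2:**
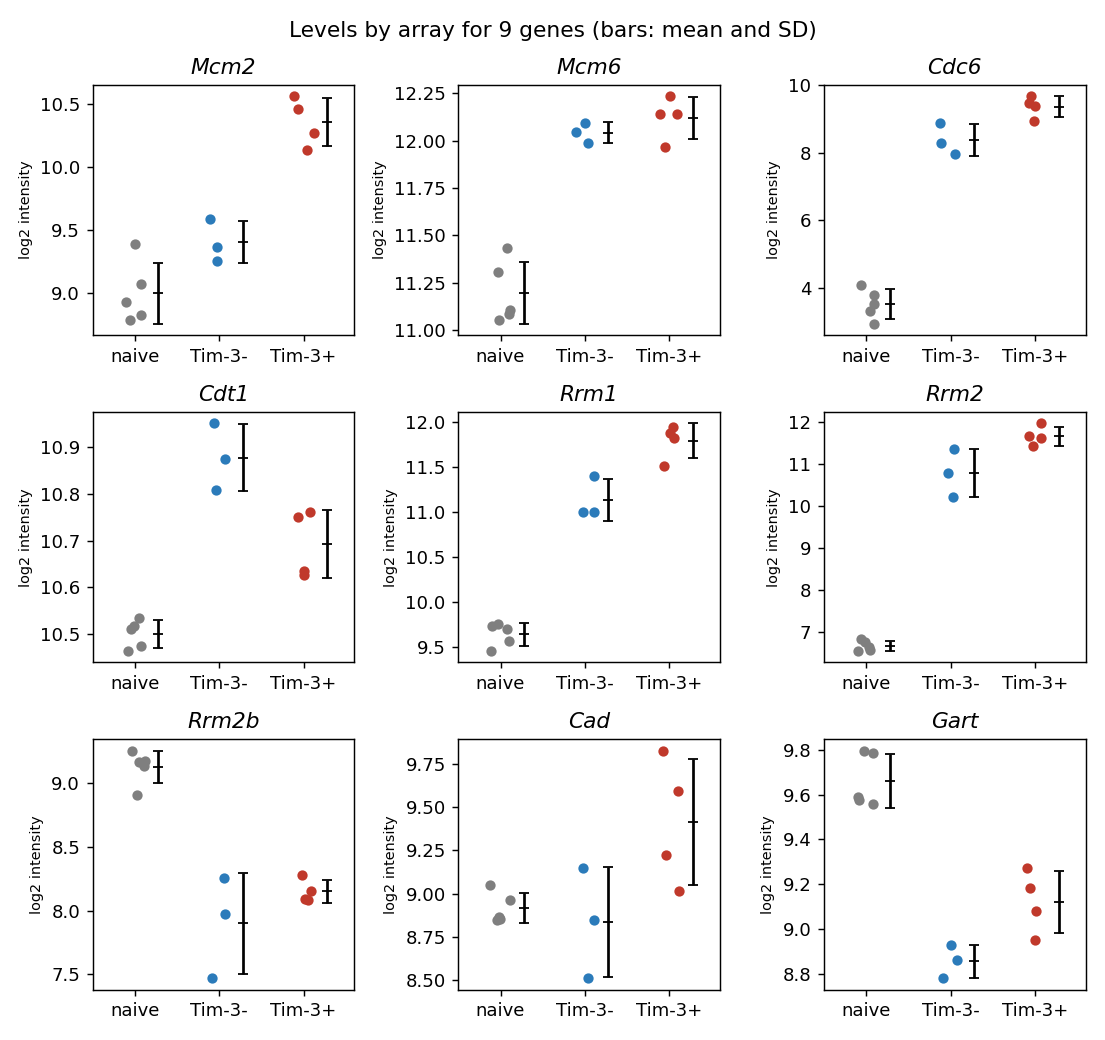
Log2 intensity of 9 genes on each array, in 3 groups (points are arrays, n = 5, 3 and 4; bars are mean ± SD; each panel has its own axis). Mcm2 separates Tim-3+ TIL from the rest, Mcm6 separates both TIL groups from naive cells on the probe set shown, Cdc6 and Rrm2 rise most from naive cells, and Rrm2b and Gart run the other way.

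At the fork, all 8 genes were higher in Tim-3- TIL than in naive cells and 7 of the 8 were higher again in Tim-3+ TIL, with median steps of 1.04 and 0.80. Pcna, the sliding clamp, stood at 11.92, 11.97, 11.89, 11.78 and 11.74 in naive cells, at 12.44, 12.44 and 12.49 in Tim-3- TIL, and at 12.83, 12.78, 12.76 and 12.76 in Tim-3+ TIL. The 3 groups formed separate bands on a narrow range, with steps of 0.60 ± 0.09 and 0.32 ± 0.09 (adjusted p = 9e-05 and 0.0284). The smaller step missed the threshold without any single array of the TIL groups except Tim-3+ replicate 3, with differences of 0.31 to 0.34 and adjusted p from 0.053 to 0.0967.

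Rfc3, Rfc4 and Rfc5, subunits of the clamp loader, rose together. Rfc5 stood at 7.64, 7.51, 7.52, 7.54 and 7.56 in naive cells, at 8.58, 8.20 and 8.41 in Tim-3- TIL, and at 9.52, 9.20, 9.03 and 9.18 in Tim-3+ TIL. Its steps were of equal size, 0.84 ± 0.12 each (adjusted p = 7.11e-05 from naive cells and 0.000414 between TIL groups). Rfc3 rose by 1.69 ± 0.17 and 0.85 ± 0.18, and Rfc4 by 0.75 ± 0.12 and 0.64 ± 0.13. None of these 3 genes had overlapping groups in either step, but for Rfc4 a probe set with no letter for shared matches gave 0.36 from naive cells, which did not pass (adjusted p = 0.07). Rfc1 and Rfc2, further subunits of the loader, did not pass as higher in both steps. Rfc1, named after its values were seen, fell from naive to Tim-3- cells (log2 change -0.30 ± 0.11, adjusted p = 0.0464). Between TIL groups it rose by 0.41 ± 0.12 (adjusted p = 0.0285). Rfc2 rose by 0.44 ± 0.12 from naive cells (adjusted p = 0.0104) and differed by 0.34 ± 0.12 between TIL groups (adjusted p = 0.093).

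Strand initiation and synthesis followed. Pola1, the catalytic subunit of polymerase alpha, stood between 5.91 and 6.40 in naive cells, at 8.00, 7.53 and 7.90 in Tim-3- TIL, and at 9.19, 8.55, 8.73 and 8.58 in Tim-3+ TIL. It rose by 1.65 ± 0.17 and 0.95 ± 0.18 (adjusted p = 3.3e-06 and 0.00226). Prim1, the primase that lays down RNA primers, rose by 1.18 ± 0.21 and 0.76 ± 0.22, and Pole, the leading strand polymerase, by 1.86 ± 0.19 and 0.87 ± 0.20. Prim1 no longer passed in the later step when any of Tim-3- replicates 2 and 3 and Tim-3+ replicates 1, 2 and 4 was left out (adjusted p 0.0575 to 0.187), nor did Pole when Tim-3- replicate 2 was (0.68, adjusted p = 0.0556). Fen1, the flap nuclease that trims Okazaki fragments, rose by 0.90 ± 0.21 from naive to Tim-3- cells and differed by 0.26 ± 0.22 between the TIL groups (adjusted p = 0.558). Naive Fen1 was 10.85 and 11.02 in set A and 11.51 to 11.72 in set B, and a fit that blocked on the sets gave 0.35 between TIL groups with an adjusted p of 0.0310. Its other probe set gave steps of 1.61 and 0.78, and there the latter passed (adjusted p = 0.00759).

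All 4 chromatin and control genes rose between the TIL groups, with a median of 1.05, the largest of the 5 roles. Clspn encodes claspin, which links stalled forks to the checkpoint kinase, and its difference between TIL groups, 1.34 ± 0.18 (adjusted p = 0.000152, 2.54-fold), was the largest of the 32 genes. It stood at 5.59, 5.85, 5.94, 5.35 and 5.87 in naive cells, at 8.01, 8.22 and 8.62 in Tim-3- TIL, and at 9.79, 9.42, 9.45 and 9.84 in Tim-3+ TIL. No array of a group reached the next group, and sets A and B gave differences between TIL groups of 1.60 and 1.23.

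Chaf1b, a subunit of the chromatin assembly factor that places histones behind the fork, changed between the TIL groups but not detectably before. Its naive levels were 7.60, 7.92, 8.37, 7.94 and 8.16, its Tim-3- levels 7.90, 8.45 and 8.27, and its Tim-3+ levels 9.53, 9.31, 9.51 and 9.55. Naive and Tim-3- arrays overlapped and differed by 0.21 ± 0.16 (adjusted p = 0.367), while Tim-3+ TIL were higher than Tim-3- TIL by 1.27 ± 0.17 (adjusted p = 0.000179). Uhrf1, which reads hemimethylated DNA and brings in the maintenance methyltransferase, rose by 2.67 ± 0.21 and 0.83 ± 0.22. E2f1, a transcription factor of the G1 to S transition, rose by 0.80 ± 0.20 and 0.78 ± 0.21. The probe sets of E2f1 disagreed: another gave steps of 2.37 and 1.01, and the dimmest gave -0.22 and 0.21. Between TIL groups neither passed with Tim-3- replicate 2 left out (adjusted p = 0.115 and 0.114), nor Uhrf1 with Tim-3+ replicate 1 left out (0.0612), nor E2f1 with Tim-3+ replicate 3 left out (0.0563).

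The 5 genes of deoxynucleotide supply were all higher in Tim-3- TIL than in naive cells, with a median of 1.49, and 4 of the 5 were higher again in Tim-3+ TIL. Ribonucleotide reductase, which turns ribonucleotides into deoxynucleotides, has a large subunit encoded by Rrm1 and a small S phase subunit encoded by Rrm2. Rrm2 stood at 6.56, 6.75, 6.82, 6.63 and 6.55 in naive cells, at 11.36, 10.22 and 10.79 in Tim-3- TIL, and at 11.96, 11.66, 11.42 and 11.61 in Tim-3+ TIL. It rose by 4.13 ± 0.20, or 17.5-fold, from naive to Tim-3- cells (adjusted p = 2.29e-09) and by 0.87 ± 0.21 between the TIL groups (adjusted p = 0.0123). With Tim-3- replicate 2 left out, the lowest TIL array, the latter difference was 0.59 and did not pass (adjusted p = 0.0594). Within sets A and B it was 0.45 and 1.01.

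Rrm1 rose with it on a smaller scale. It lay between 9.45 and 9.75 in naive cells, at 10.99, 10.995 and 11.40 in Tim-3- TIL, and at 11.88, 11.50, 11.82 and 11.94 in Tim-3+ TIL. The steps were 1.49 ± 0.13 and 0.66 ± 0.14 (adjusted p = 7.73e-07 and 0.00523), with no overlap in either. Rrm2b, the small subunit that serves resting cells, is not among the 32 genes and was picked after its values were seen. It stood at 9.25, 9.16, 8.91, 9.14 and 9.17 in naive cells, at 8.26, 7.97 and 7.47 in Tim-3- TIL, and at 8.09, 8.15, 8.28 and 8.09 in Tim-3+ TIL. It fell by 1.23 on the log2 scale from naive to Tim-3- cells (SE 0.15, adjusted p = 1.64e-05), the reverse of Rrm2, and the TIL groups overlapped.

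Tk1, the thymidine salvage kinase of S phase, rose by 2.50 ± 0.20 from a naive mean below 5.71, with levels of 5.29, 5.70, 5.42, 5.17 and 5.80. It stood at 8.24, 7.53 and 8.16 in Tim-3- TIL and at 9.66, 9.42, 8.94 and 9.16 in Tim-3+ TIL. These did not overlap and differed by 1.32 ± 0.21 (adjusted p = 0.000753, 2.50-fold). Dut, the dUTPase that keeps uracil out of DNA, rose by 1.42 ± 0.11 and 0.72 ± 0.12. Its dimmer probe set gave 0.49 and 0.48, and neither passed (adjusted p = 0.0518 and 0.128). Tyms, thymidylate synthase, rose by 1.01 ± 0.19 from naive to Tim-3- cells and differed by 0.40 ± 0.20 between TIL groups, which overlapped (adjusted p = 0.246); with the mean of its probe sets the latter was 0.36 and passed (adjusted p = 0.0259). Averaging the probe sets of a gene also lowered the step between TIL groups to 0.67 for Gins1, 0.60 for Pola1 and 0.68 for Chaf1b, all still past the threshold. The probe sets that this added had means below 5.71, at 5.03, 3.36 and 4.71, so they may lie at background.

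De novo base synthesis followed last. Of its 3 genes 1 was higher in Tim-3- TIL than in naive cells, 2 were higher in Tim-3+ TIL than in naive cells, and 0 of the 3 passed between the TIL groups, where their median was 0.19. Umps, which makes UMP, stood between 9.002 and 9.22 in naive cells, at 9.33, 10.00 and 10.00 in Tim-3- TIL, and between 9.79 and 10.04 in Tim-3+ TIL. It rose by 0.64 ± 0.14 to Tim-3- TIL (adjusted p = 0.00285) and was 0.83 ± 0.13 higher in Tim-3+ TIL than in naive cells (adjusted p = 0.000133), and Tim-3- replicate 1, the single Tim-3- array of set A, stood apart from the other two: the rise was 0.25 within set A and 0.82 within set B. Cad, which carries the opening steps of pyrimidine synthesis, stood at 8.86, 8.96, 8.85, 8.86 and 9.05 in naive cells, at 9.15, 8.51 and 8.84 in Tim-3- TIL, and at 9.59, 9.22, 9.02 and 9.83 in Tim-3+ TIL. Naive and Tim-3- arrays overlapped, and the difference between the TIL groups, 0.58 ± 0.18, just missed the threshold (adjusted p = 0.0519), and with the mean of its probe sets it passed at 0.60 (adjusted p = 0.00512). Against naive cells Cad was 0.50 ± 0.16 higher in Tim-3+ TIL (adjusted p = 0.0223), which did not pass with Tim-3+ replicate 1 or 4 left out (adjusted p between 0.0662 and 0.0847). Paics, a purine enzyme, passed in no comparison, with a difference of 0.25 ± 0.10 between Tim-3+ TIL and naive cells (adjusted p = 0.0632), where 6 of 13 other settings brought it past the threshold, as did leaving out naive replicate 3.

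To place Tim-3- TIL between the other groups, their level was set against the midpoint of the naive and Tim-3+ means. Of the 32 genes 12 lay above the midpoint (8.49% of all genes) and 1 below it (9.1%). Cdc6 lay 1.95 ± 0.23 above and Rrm2 1.63 ± 0.18 above (adjusted p = 5.24e-05 and 2.93e-05), and Chaf1b lay below by 0.53 (SE 0.15, adjusted p = 0.0236). This test was fragile: without Tim-3- replicate 3 the count past the threshold was 5 in place of 13, and within set B it was 7. Over all genes 1106 lay above and 1133 below without Tim-3- replicate 3, in place of 1544 and 1655. Chaf1b did not pass with Tim-3- replicate 1 or 3 left out (adjusted p between 0.0646 and 0.132). Among the 29 genes higher in Tim-3+ TIL than in naive cells, a median of 66.3% of the log2 difference was already present in Tim-3- TIL, from -16.2% for Cad to 91.5% for Mcm6. Over the arrays themselves, 20 of the 32 genes ran in order with no overlap, naive lowest and Tim-3+ highest, as did 4.41% of all genes, and 21 passed in both steps, as did 3.3% of all genes.

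**Figure D3:**
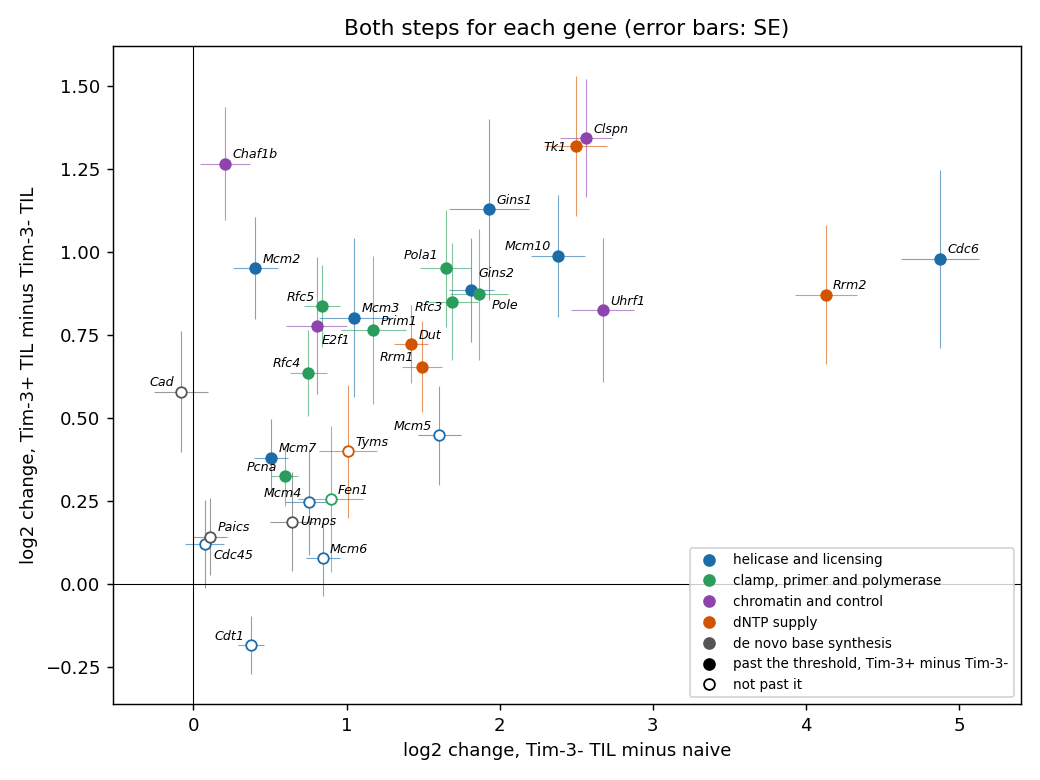
Each of the 32 genes by its log2 change from naive cells to Tim-3- TIL (horizontal) and from Tim-3- to Tim-3+ TIL (vertical), coloured by role, with SE bars; filled points passed the threshold between the TIL groups. Cdc6 and Rrm2 lie far right at 4.87 and 4.13, Chaf1b and Mcm2 lie high near the left axis, and Cdt1 is the point below 0.

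The rest of the pathway was read from lists of 80 further genes, of which 76 were measured. Between the TIL groups 33 of the 76 were higher in Tim-3+ cells and 2 lower (7.77% and 5.77% of all genes), with a median of 0.40. From naive to Tim-3- cells 30 were higher and 17 lower (16.1% and 18.3% of all genes), with a median of 0.10. They were not tested against the 32 genes. Without Tim-3- replicate 2 the number past the threshold between TIL groups was 20 in place of 35. Over all genes 907 were then higher and 759 lower, in place of 1413 and 1050. Of 17 other origin and helicase genes 10 rose and 0 fell between the TIL groups. They included Ticrr, which helps fire origins (1.10 ± 0.15, adjusted p = 0.000149), Gins3 (0.83 ± 0.13), and Gmnn, which encodes the Cdt1 inhibitor geminin (0.87 ± 0.14). Gmnn also rose by 2.15 ± 0.13 from naive to Tim-3- cells. Orc3, an origin recognition subunit, had means of 10.45, 10.44 and 10.44.

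Of 23 other fork genes 12 rose and 0 fell between the TIL groups. Chtf18, of an alternative clamp loader, and Pold2, of polymerase delta, rose between TIL groups by 0.88 ± 0.14 and 0.72 ± 0.13. Pole2, a polymerase epsilon subunit, dipped in Tim-3- TIL: its means were 9.01 in naive cells, 8.19 in Tim-3- TIL and 8.91 in Tim-3+ TIL, a fall of 0.81 on the log2 scale (SE 0.12, adjusted p = 0.00011) and a rise of 0.72 ± 0.13 (adjusted p = 0.00156). Among 8 other chromatin genes 4 rose and 1 fell, the latter Asf1a (log2 change -0.32), named after its values were seen. The histone chaperone gene Asf1b rose by 1.14 ± 0.19, the remodeller gene Hells by 0.76 ± 0.15 and Dnmt1, the maintenance methyltransferase, by 0.45 ± 0.12, whereas Rbbp4 differed by 0.02 ± 0.09.

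Nucleotide enzymes outside the 32 genes went in both directions. Of 13 pyrimidine genes 1 was higher and 4 were lower in Tim-3- TIL than in naive cells, and of 15 genes of purine and deoxynucleotide balance 4 were higher and 7 lower, where 16.1% of all genes were higher and 18.3% lower; with so few genes most of these counts lie near those shares. The pyrimidine genes that fell, Ctps2, Dctd, Dhodh and Tk2, changed by -0.36 to -0.99; all but Ctps2 are named after their values were seen. Prps2, which makes the ribose donor, fell by 0.85 on the log2 scale (SE 0.17, adjusted p = 0.00109), and Samhd1, which degrades deoxynucleotides, fell by 0.63 (SE 0.14, adjusted p = 0.00289). Gart and Atic, enzymes of de novo purine synthesis picked after their values were seen, fell by 0.80 and 1.21 (SE 0.10 and 0.13). In the other direction Adssl1, an adenylosuccinate synthase, rose by 3.34 ± 0.23 from a naive mean of 4.00, below 5.71, and Gmps, GMP synthase, by 0.73 ± 0.10. Between the TIL groups 3 pyrimidine genes were higher and 1 lower, and 4 purine genes were higher and 0 lower. Mthfd2, a mitochondrial folate enzyme, was higher by 0.47 ± 0.13, and Ctps2, a CTP synthase, was lower by 0.45 (log2 change -0.45 ± 0.10, adjusted p = 0.00661).

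**Figure D4:**
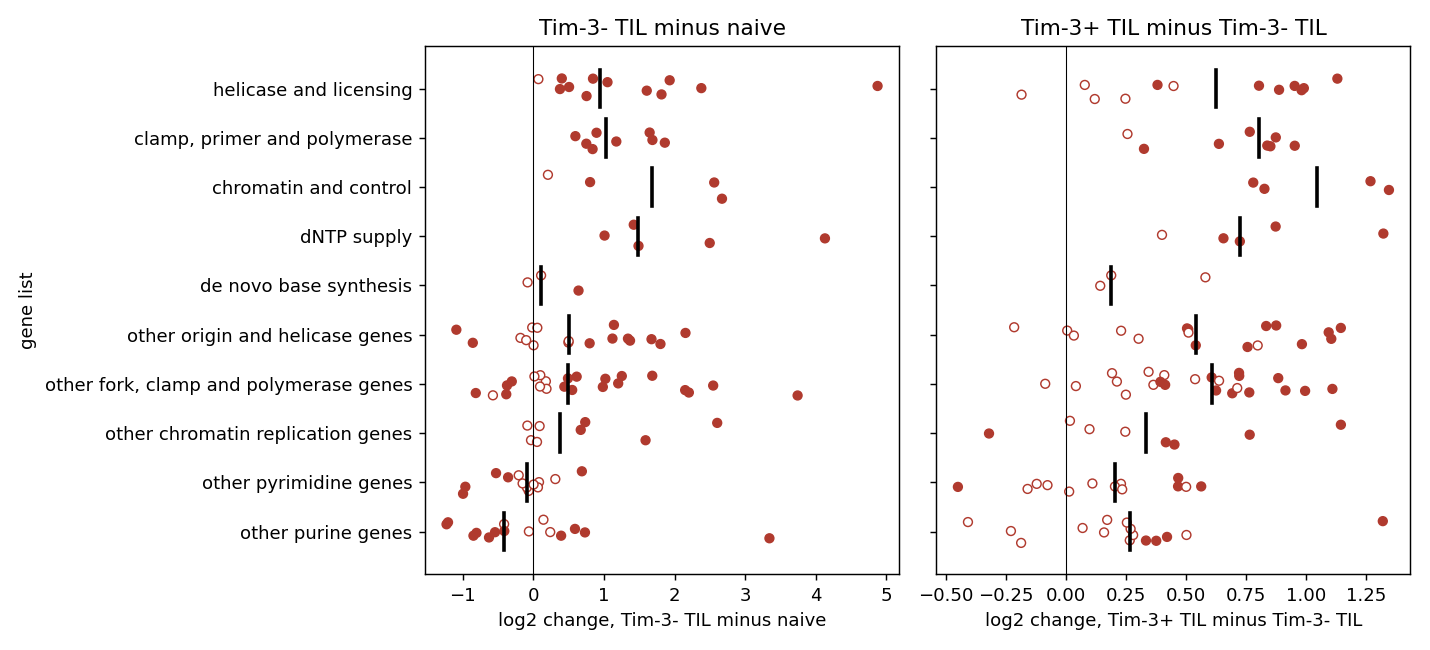
Log2 changes of single genes (points, filled where past the threshold) in each role of the 32 genes and in 5 lists of further pathway genes, for Tim-3- TIL minus naive and Tim-3+ minus Tim-3- TIL; bars are medians. Chromatin and control genes and deoxynucleotide supply have the highest medians against naive cells, 1.68 and 1.49, and purine and pyrimidine lists scatter on both sides of 0.

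Cell cycle genes around replication were measured alongside. Of 20 G1/S control genes, 13 were higher and 1 lower in Tim-3- TIL than in naive cells (16.1% and 18.3% of all genes). From there to Tim-3+ TIL 7 rose and 2 fell (7.77% and 5.77% of all genes). Cdkn1a, which encodes the cyclin kinase inhibitor p21, rose in both steps, by 1.38 ± 0.15 and 1.71 ± 0.16 (adjusted p = 7.82e-06 and 7.32e-06). Rbl2, a pocket protein of quiescence, rose by 0.54 ± 0.10 and 0.96 ± 0.10. Tob1, an antiproliferative gene, peaked in Tim-3- TIL with means of 7.35, 8.65 and 7.71, higher by 1.30 ± 0.12 than in naive cells and then lower by 0.94 (log2 change -0.94 ± 0.12). The other gene that fell between TIL groups was Cdkn1b, which encodes the inhibitor p27 (log2 change -0.69 ± 0.13), and the gene that fell from naive cells was Btg2 (log2 change -0.78); both are named after their values were seen. Of 11 checkpoint genes 6 rose and 0 fell between the TIL groups, among them Fancd2 (0.98 ± 0.18) and Exo1 (1.29 ± 0.25), both of DNA repair. From naive cells to Tim-3- TIL the checkpoint genes went both ways, with 5 higher, 3 lower and a median of -0.003. Against naive cells 5 were higher and 3 lower in Tim-3+ TIL too (20.1% and 21.4% of all genes). All 9 mitosis genes were higher in both steps, as were 3.3% of all genes, with medians of 2.26 and 1.05. Cenpa, the centromeric histone, rose by 2.21 ± 0.11 and 0.98 ± 0.11.

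Array by array, the median of the 32 genes relative to their naive means lay between -0.06 and 0.11 in naive cells, at 1.19, 0.82 and 1.16 in Tim-3- TIL, and at 2.03, 1.75, 1.66 and 1.71 in Tim-3+ TIL. The groups did not overlap. Tim-3- replicate 2 was the lowest TIL array, above its group's mean for 4 of the 32 genes. Melanoma markers moved in part with the groups. The summed intensity of 8 such genes was 445 to 583 in naive cells, 433, 450 and 705 in Tim-3- TIL, and 1264, 345, 885 and 570 in Tim-3+ TIL. Tim-3+ replicate 1 was highest in both measures. Tim-3+ replicate 2 had the lowest melanoma sum of all 12 arrays and a replication median of 1.75. The linear sum weights the brighter genes, and 6 of the 8 had naive means below 5.71. By the mean log2 of the 8 genes, naive arrays lay at 5.00 to 5.14 and Tim-3- arrays at 5.56, 5.41 and 6.13. Tim-3+ arrays lay at 7.05, 5.25, 6.47 and 5.97, so every TIL array stood above every naive array. Between the TIL groups 0 of the 8 melanoma genes passed, with 7 of the 8 higher in Tim-3+ TIL and a median of 0.63. Against naive cells 5 of the 8 were higher and 1 lower in Tim-3+ TIL (20.1% and 21.4% of all genes), with a median of 0.94. In Tim-3- TIL 2 of the 8 were higher and 1 lower (16.1% and 18.3% of all genes), counts that lie near those shares. The defining markers Tyrp1 and Dct, named after their values were seen, had means of 3.11 and 4.08 in naive cells, 6.15 and 6.33 in Tim-3- TIL, and 6.77 and 7.003 in Tim-3+ TIL.

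Markers of other cell types also differed between groups. The summed intensity of 9 monocyte and macrophage genes was 285 to 368 in naive cells, 457 to 531 in Tim-3- TIL and 360 to 479 in Tim-3+ TIL, with 7 of the 9 below 5.71 in each group. Between the TIL groups 1 of the 9 was higher in Tim-3+ cells and 1 lower (7.77% and 5.77% of all genes), with a median of 0.05. The 1 that fell was Cd68 (log2 change -0.82 ± 0.22, adjusted p = 0.0203). Foxp3, the factor of regulatory T cells, fell as well (log2 change -1.004 ± 0.13, adjusted p = 0.000107), from a Tim-3- mean of 7.94. The sum of 3 CD4 and regulatory T cell genes, Foxp3 among them, peaked in Tim-3- TIL. It was 258 to 279 in naive cells, 423 to 489 in Tim-3- TIL and 320 to 365 in Tim-3+ TIL. Of these 3 genes 2 were higher in Tim-3- TIL than in naive cells (16.1% of all genes). Between the TIL groups 2 were lower in Tim-3+ cells (5.77%). The B cell sum of 5 genes was 561 to 749 in naive cells, 218 to 231 in Tim-3- TIL and 170 to 189 in Tim-3+ TIL, and the means of the 2 NK cell and 2 erythroid genes were below 5.71 in all groups. The sum of 5 fibroblast and endothelial genes was 904 to 1163, 441 to 462 and 241 to 311 in the 3 groups. Of these 5 genes 3 had means below 5.71 in each group, and Pecam1, which lymphocytes also express, fell in both steps (log2 changes -1.60 ± 0.13 and -1.46 ± 0.13). The part of these markers' cells in the replication results was not tested.

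**Figure D5:**
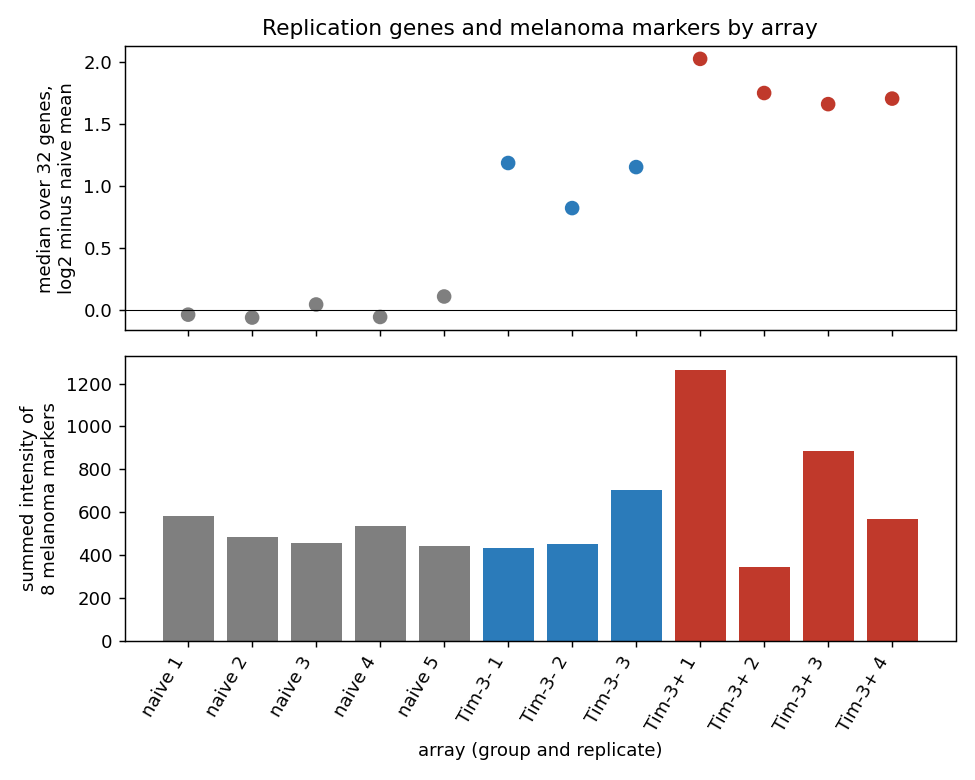
Upper panel, the median over the 32 genes of log2 intensity minus the naive mean, for each array; lower panel, the summed linear intensity of 8 melanoma markers on the same array. Replication medians separate the 3 groups, and melanoma sums overlap between them, with the highest sum, 1264, on Tim-3+ replicate 1 and the lowest, 345, on Tim-3+ replicate 2. The mean log2 of these markers, not drawn, was higher on every TIL array than on every naive array.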

How the data were processed

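RNA of each of the 12 samples was hybridised as biotin-labelled cRNA to an Affymetrix mouse array. The authors deposited an intensity per probe set on a linear scale, made with RMA and affy per the submitters' processing notes. Not given in the sources used here are the versions, how the linear scale was restored, and if the arrays were normalized as 1 batch. The log2 of each deposited intensity was taken. Of 45101 probe sets, 64 are controls, and the array's annotation names 1 gene for 34945, several for 932 and none for 9160. Of those naming 1 gene, 34741 matched RefSeq by Entrez identifier and 0 symbols changed. A gene took its probe set with the highest mean, with no filter on dim genes; for 16 of the 32 genes described its ID ends in _s_at, _x_at or _a_at, a design that can also match related transcripts. The values come without detection calls.

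Group means were fitted over all 12 arrays with limma 3.58.1 in R 4.3.3 (9 residual degrees of freedom before moderation, empirical Bayes moderation, two-sided tests, Benjamini-Hochberg adjustment over 18193 genes). Python 3.11.15, pandas 2.3.3 and matplotlib 3.10.9 did the rest. The method was tested on simulated data with independent noise in each gene. Of genes given a log2 change of 0.5 between the TIL groups 20% passed, and of those given 1, 88% did. A difference of 0.5 or less between the TIL groups that did not pass can thus have been missed. The genes and lists were chosen with earlier results of these data known. Further genes named come, per list, from up to 3 with the smallest adjusted p below 0.05 between the TIL groups. Up to 2 not past it with the highest mean were also picked. The sort markers and up to 2 of each marker list with the highest mean were added. Exceptions are stated. Not every gene so picked is described. Those left out include Topbp1, Rpa1, Rbbp7, Cmpk1, Nme1, Btg1, Tfdp1, Hus1 and Rad17, none of them past the threshold between the TIL groups. Sets A and B were also known from earlier results. The SD over genes of the difference between arrays of a group was 0.234 to 0.301 within a set and 0.337 to 0.412 across sets. Alternatives changed the probe sets behind a gene, the normalization, the filter on dim genes (percentile 40), moderation, array weights, the groups in the fit, blocks, the sets, and leaving out each array.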

Additional observations from a re-analysis of the deposited data

Results flagged for a closer look

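Each of the 32 genes was checked in the naive and the Tim-3+ group for an array far from the others, and 3 of 64 such sets of values held one; chance alone gives about 1 in 20. E2f1 on naive replicate 4 was low at log2 5.95, with the nearest naive array at 6.75. Chaf1b on Tim-3+ replicate 2 was low at 9.31, with the nearest Tim-3+ array at 9.51. Uhrf1 on Tim-3+ replicate 1 was high at 10.54, with the nearest at 10.18. The Tim-3- group, with 3 arrays, was not checked in this way.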

How the results depend on the processing

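No count, list median or gene past the threshold reversed direction under any alternative; genes not past it did change sign, such as Cad from -0.08 to 0.24 (Tim-3- TIL minus naive, set A). With the most variable probe set of each gene the median log2 change from naive cells was 1.49 in Tim-3- TIL and 2.06 in Tim-3+ TIL. Within set A, 5 of the 32 genes and 14 of the 76 further genes passed between the TIL groups, the median there was 0.60, that of Tim-3- TIL against naive was 1.17, and 6 genes passed against the midpoint; within set B the counts were 14 between the TIL groups and 7 against the midpoint. Leaving out 1 array gave 12 to 21 genes past the threshold between the TIL groups (median 0.59 to 0.85, further genes 20 to 31). The same gave 27 to 28 for Tim-3- TIL against naive (median 0.94 to 1.25, further genes 42 to 47), 28 to 30 for Tim-3+ TIL against naive (median 1.66 to 1.85, further genes 55 to 59), and 5 to 14 against the midpoint. The causes were not tested. Of the 22 genes past the threshold between the TIL groups, 12 kept it in every such fit, as did 27 of 28 and 28 of 29 for the Tim-3- and Tim-3+ groups against naive cells; over all alternatives 4 of 22, 21 of 28 and 28 of 29 kept it. Same-numbered samples did not deviate together throughout (r -0.15 to 0.41 over 10 pairs, above 0.1 in 8), so the main fit did not pair samples by number. The sign of r followed the sets: it was 0.05 to 0.41 for pairs within a set and -0.39 to -0.12 for pairs across sets, whatever the number. The same-numbered pairs with a negative r, Tim-3- replicate 2 with naive and with Tim-3+ replicate 2, lay across sets. Whether Tim-3- and Tim-3+ TIL were sorted from the same tumours cannot be told from this. With the replicate block, 22, 27 and 29 genes passed in these comparisons and 13 against the midpoint, with a median of 0.86 between the TIL groups.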
